A study of Mus musculus with 9 samples.

Results

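The 10 genes *Gata1*, *Zfpm1*, *Gfi1b*, *Nfe2*, *Runx1*, *Meis1*, *Gata2*, *Fli1*, *Mef2c* and *Lyl1* encode transcription factors and cofactors of the megakaryocyte lineage, the bone marrow (BM) cells that shed platelets. They were taken by gene name from a table of read counts for 46078 genes, and all 10 were found and passed the filter on low counts that left 15937 genes for testing. The table held RNA-seq libraries of BM cells sorted as endothelial cells (ECs, CD45-Ter119-CD31+) from wild-type (wt) mice of the B6 strain, with no treatment, 4 labelled Sca-1+ and 5 labelled Sca-1-. In the study the Sca-1+ cells (Sca-1high) stand for ECs that line arteries and arterioles and the Sca-1- cells (Sca-1low) for ECs that line sinusoids. Age, sex and the number of mice behind each library were not given in the sources used here, and the labels do not say for every library that it came from a separate mouse, so p-values measure the spread between these libraries, which may in part be technical. Libraries are named here by the fraction and the number that ends their title. The titles also carry tags that differ within each fraction. Sca-1+ libraries 15 and 19 and Sca-1- libraries 8 and 16 carry wt. Sca-1+ library 13 and Sca-1- libraries 10, 14 and 22 carry a tag of another kind, and Sca-1+ library 7 carries neither. The labels do not explain these tags, and their part in the spread between libraries was not tested.

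GATA1 is the zinc finger factor that megakaryocytes, erythroid cells, mast cells, basophils and eosinophils share, and it acts with the cofactor FOG1 (the product of *Zfpm1*) and the repressor GFI1B. NF-E2, a dimer of the *Nfe2* product and a small MAF protein, drives the late megakaryocyte genes that platelet release needs. RUNX1 and MEIS1 are factors of blood stem cells that stay on in megakaryocytes. GATA2, the ETS factor FLI1, MEF2C and the basic helix-loop-helix factor LYL1 are known in blood cells and in endothelium alike, and the study treats GATA2 as a regulator of miR-126, the microRNA held in an intron of *Egfl7*. The comparison of the fractions therefore sets factors that belong to blood beside factors that both lineages use.

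The libraries held 23058385 to 24657204 counts (Sca-1+) and 21581653 to 25959818 counts (Sca-1-). *Ly6a*, which encodes Sca-1, followed the labels with 1133 ± 187 CPM (SD, n = 4) in Sca-1+ and 0.678 ± 0.524 CPM (SD, n = 5) in Sca-1- libraries, where CPM are read counts relative to a library size scaled by trimmed mean of M values (TMM). The label of endothelial cells was at odds with the Sca-1- libraries. The 25 general endothelial markers took 0.175% to 0.229% of their counts against 2.05% to 2.56% in Sca-1+, and 16 megakaryocyte markers took 3.20% to 6.87% against 0.0357% to 0.0406%. Of these 16, *Vwf*, *Thbs1* and *Mmrn1* are known in endothelium too. Of the 25, *Esam* alone was at 1031 ± 845 CPM (SD, n = 5) in Sca-1-, where the 25 together were at 1517 to 3944 CPM. In Sca-1+ *Esam* was at 1202 ± 46.5 CPM (SD, n = 4) and the 25 together at 18339 to 21058 CPM. The 12 erythroid markers took 0.180% to 0.523% of Sca-1- counts, the most in library 16, and 0.0294% to 0.0472% of Sca-1+ counts. General leukocyte markers took 0.204% to 0.331% of Sca-1- and 0.0144% to 0.0235% of Sca-1+ counts. Sca-1- library 16 stood apart by 11 mast cell, basophil and eosinophil markers, at 1.53% of its counts against 0.0208% to 0.192% in the other Sca-1- libraries, led by the basophil proteases *Prss34* (249800 counts) and *Mcpt8* (96183 counts). Sca-1- library 22 had the most reads of B and plasma cell markers of its fraction (0.0362%), and Sca-1+ library 19 had more neutrophil marker reads (0.0882%) than the other Sca-1+ libraries (0.00109% to 0.00722%). All Sca-1+ libraries carry earlier running numbers in the labels than the Sca-1- libraries, so a difference in handling between these runs and the fraction cannot be told apart.

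Of the 10 genes, 9 were lower in Sca-1+ libraries by edgeR's quasi-likelihood test at an adjusted p under 0.05, none was higher and *Mef2c* did not pass. Among all tested genes 21.4% were lower, 23.3% were higher and 44.8% passed in either direction. Every Sca-1- library lay above every Sca-1+ library for 8 of the 10, against 18.8% of all tested genes, and for none of the 10 was the order the opposite, which held for 24.8% of all tested genes. The median log2 fold change of the 10, as Sca-1+ over Sca-1-, was -3.85, beside 0.07 over all tested genes. By role, it was -7.54 for the 4 megakaryocyte-erythroid genes and -5.29 for the 2 stem cell and megakaryocyte genes, *Meis1* (-6.92) and *Runx1* (-3.67). It was -2.18 for the 4 genes known in endothelium too. Of these 4, *Lyl1* was at -4.03, beyond *Runx1* and also *Zfpm1* (-3.17), so the roles overlapped. In bulk libraries fewer cells of a type and less RNA per cell cannot be told apart.

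**Figure D1:**
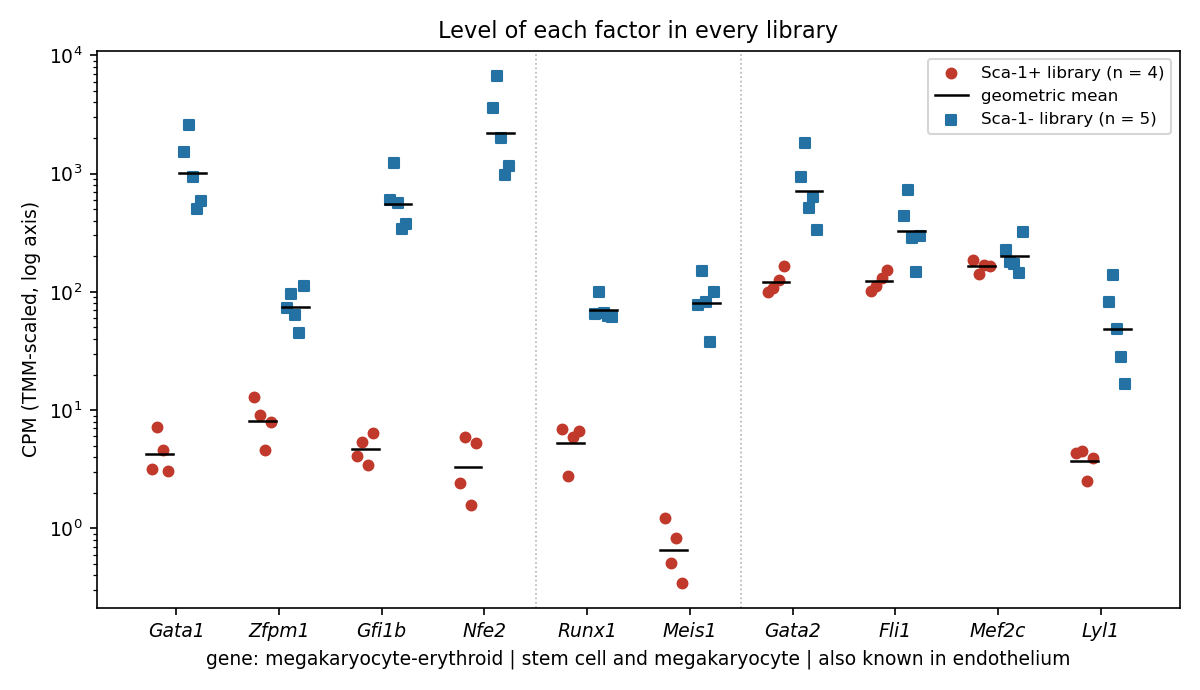
Level of each of the 10 genes (x axis, ordered by role, with dotted lines between roles) in CPM on a log axis, with 1 point per library (red circles, 4 Sca-1+; blue squares, 5 Sca-1-) and a black bar at the geometric mean of each fraction. The fractions are apart for 8 genes and overlap for *Fli1* and *Mef2c*.

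The 4 megakaryocyte-erythroid genes were all lower in Sca-1+, 3 of them by more than 100-fold. *Gata1* (ENSMUSG00000031162, chrX:7959260-7978071, minus strand) was counted at 3.20, 7.19, 4.63 and 3.06 CPM in Sca-1+ libraries 7, 13, 15 and 19, and at 1515, 2594, 941 and 503 CPM in Sca-1- libraries 8, 10, 14 and 16 and 586 CPM in library 22. Every Sca-1- library exceeded every Sca-1+ library by a wide margin, and within Sca-1- library 10 was the highest and 16 the lowest. The means, 4.52 ± 1.91 CPM (SD, n = 4) in Sca-1+ against 1228 ± 862 CPM (SD, n = 5) in Sca-1-, differed by -8.08 on the log2 scale, with a standard error of 0.71 (95% interval -9.67 to -6.50, adjusted p = 3.44e-05), or 271-fold. All adjusted p-values are from edgeR's quasi-likelihood test over all tested genes.

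*Nfe2* (ENSMUSG00000058794, chr15:103248212-103258403, minus strand) had the largest difference of the 10 and also the highest level of them per length in Sca-1- libraries, at 963 ± 791 RPKM (SD, n = 5), where RPKM is the CPM relative to exon length in kilobases. It was counted at 2.42, 5.96, 1.59 and 5.27 CPM in Sca-1+ libraries 7, 13, 15 and 19, and at 3587, 6680, 2000, 966 and 1150 CPM in Sca-1- libraries 8, 10, 14, 16 and 22. The Sca-1- libraries spread 6.92-fold among themselves (3.46-fold by library size without TMM factors), with library 10 again highest, and none came near the Sca-1+ level. Its change, -9.56 on the log2 scale, had a standard error of 0.94 (95% interval -11.6 to -7.48, adjusted p = 5.02e-05), or 755-fold.

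*Gfi1b* (ENSMUSG00000026815, chr2:28609450-28621982, minus strand), which encodes a zinc finger repressor that recruits the demethylase LSD1, followed the same order. Its CPM were 4.12, 5.35, 3.45 and 6.47 in Sca-1+ libraries 7, 13, 15 and 19, and 601, 1224, 569, 340 and 376 in Sca-1- libraries 8, 10, 14, 16 and 22. Library 10 was the highest and 16 the lowest, as for *Gata1* and *Nfe2*. On the log2 scale it differed by -7.0, with a standard error of 0.53 (95% interval -8.17 to -5.83, adjusted p = 1.78e-05), or 128-fold.

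*Zfpm1* (ENSMUSG00000049577, chr8:122282141-122337251, plus strand), the FOG1 gene, differed least of the 4. Its CPM were 13.02, 9.09, 4.63 and 7.90 in Sca-1+ libraries 7, 13, 15 and 19, and 73.4, 95.6, 64.2, 44.7 and 111 in Sca-1- libraries 8, 10, 14, 16 and 22. The fractions did not overlap, but here library 22 was the highest of its fraction. On the log2 scale it differed by -3.17, with a standard error of 0.38 (95% interval -4.01 to -2.33, adjusted p = 0.000143), or 8.98-fold. Per length (RPKM), the level of *Zfpm1* was 0.0256 to 0.132 of that of *Gata1* in the Sca-1- libraries and 0.696 to 2.83 of it in the Sca-1+ libraries, so the level of the cofactor gene was low beside that of its partner in one fraction and similar to it in the other.

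Among stem cell and megakaryocyte genes, *Meis1* was almost uncounted in Sca-1+ libraries. *Meis1* (ENSMUSG00000020160, chr11:18879817-19018985, minus strand), a homeobox gene, had 36, 15, 24 and 9 counts in Sca-1+ libraries 7, 13, 15 and 19, or 1.23, 0.511, 0.829 and 0.348 CPM. Its Sca-1- levels were 77.4, 150, 82.0, 37.7 and 98.8 CPM in libraries 8, 10, 14, 16 and 22, so the fractions were far apart. *Meis1* thus differed by -6.92 on the log2 scale, with a standard error of 0.56 (95% interval -8.17 to -5.67, adjusted p = 2.39e-05), or 121-fold. *Meis1* is uncertain because its exons overlap Gm37818 on the same strand and Gm16140 on the opposite strand.

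*Runx1* (ENSMUSG00000022952, chr16:92601466-92826149, minus strand), the core-binding factor that pairs with the *Cbfb* product, varied least of the 10 within Sca-1-, with a coefficient of variation of 23.1%. Its CPM were 6.99, 2.79, 5.90 and 6.62 in Sca-1+ libraries 7, 13, 15 and 19, and 64.8, 100, 65.7, 62.5 and 61.6 in Sca-1- libraries 8, 10, 14, 16 and 22. Its difference was -3.67 on the log2 scale, with a standard error of 0.33 (95% interval -4.40 to -2.94, adjusted p = 3.62e-05), or 12.7-fold, and -3.57 without Sca-1- library 10. *Runx1* is uncertain because its exons overlap Gm26626 on the opposite strand and the counting of strand is not given in the sources used here. *Cbfb* itself did not pass the test, with 88.0 ± 9.96 CPM (SD, n = 4) against 62.7 ± 27.1 CPM (SD, n = 5), so of this pair only *Runx1* passed.

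Of the 4 genes known in endothelium too, *Gata2*, *Fli1* and *Lyl1* were lower in Sca-1+ and *Mef2c* did not pass. *Gata2* (ENSMUSG00000015053, chr6:88193891-88207032, plus strand) was counted at 99.4, 107, 126 and 167 CPM in Sca-1+ libraries 7, 13, 15 and 19, and at 928, 1825, 511, 631 and 330 CPM in Sca-1- libraries 8, 10, 14, 16 and 22. The lowest Sca-1- library still lay above the highest Sca-1+ library. The means, 125 ± 30.0 CPM (SD, n = 4) in Sca-1+ against 845 ± 590 CPM (SD, n = 5) in Sca-1-, differed by -2.76 on the log2 scale, with a standard error of 0.50 (95% interval -3.87 to -1.65, adjusted p = 0.00140), or 6.78-fold, and -2.34 without Sca-1- library 10. In the same libraries *Egfl7*, host of miR-126, went the other way, at 960 ± 341 CPM (SD, n = 4) in Sca-1+ and 34.5 ± 17.2 CPM (SD, n = 5) in Sca-1-, a log2 fold change of 4.80 (adjusted p = 6.12e-05). The exons of *Egfl7* overlap genes on both strands, so its level is uncertain, and poly(A) libraries do not measure mature miR-126. General endothelial markers took 0.175% to 0.229% of Sca-1- counts and megakaryocyte markers 3.20% to 6.87%. Which cells held the Sca-1- reads of *Gata2* was not tested. The study's evidence on GATA2 was of another kind, such as its knock-down and chromatin immunoprecipitation in human umbilical vein ECs. The study also reported higher miR-126 in Sca-1high than in Sca-1low ECs of normal mice.

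*Fli1* (ENSMUSG00000016087, chr9:32422204-32542861, minus strand) passed the test although its fractions overlapped. Its CPM were 102, 113, 130 and 152 in Sca-1+ libraries 7, 13, 15 and 19, and 436, 729, 283, 147 and 298 in Sca-1- libraries 8, 10, 14, 16 and 22. The lowest Sca-1- library, number 16, fell below the highest Sca-1+ library, number 19, and the other 4 lay above all Sca-1+ libraries. The difference in *Fli1* was -1.61 on the log2 scale, with a standard error of 0.42 (95% interval -2.54 to -0.68, adjusted p = 0.0101), or 3.05-fold. With consecutive end numbers as a replicate block in 6 libraries the change was -1.21 and did not pass (adjusted p = 0.0976), and the same 6 libraries without the block gave -1.33 (adjusted p = 0.0413).

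*Mef2c* (ENSMUSG00000005583, chr13:83504034-83667080, plus strand), a MADS-box factor of muscle, endothelium, B cells and megakaryocytes, was the 1 gene of the 10 that did not pass. It was counted at 186, 141, 170 and 166 CPM in Sca-1+ libraries 7, 13, 15 and 19, and at 228, 178, 173, 143 and 319 CPM in Sca-1- libraries 8, 10, 14, 16 and 22. The fractions overlapped, and the highest value was that of library 22, the one with the most reads of B and plasma cell markers in its fraction (0.0362% of counts). The part of those cells in that value was not tested, and without library 22 the difference was -0.13. For *Mef2c* the difference was -0.33 on the log2 scale, with a standard error of 0.25 (95% interval -0.89 to 0.24, adjusted p = 0.322). Under library size without TMM factors it was 0.04, with the opposite sign, and under scaling to general endothelial markers it was -3.62 (adjusted p = 9.93e-06).

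*Lyl1* (ENSMUSG00000034041, chr8:84701457-84704715, plus strand), a sister of *Tal1*, was counted at 4.33, 4.49, 2.52 and 3.95 CPM in Sca-1+ libraries 7, 13, 15 and 19, and at 81.9, 138, 48.3, 28.2 and 16.7 CPM in Sca-1- libraries 8, 10, 14, 16 and 22. It had the widest range of the 10 within Sca-1-, 8.24-fold from library 22 to library 10, or 4.203-fold by library size without TMM factors. It was different by -4.03 on the log2 scale in Sca-1+, at a standard error of 0.63 (95% interval -5.42 to -2.64, adjusted p = 0.000593), or 16.3-fold. *Lyl1* is uncertain because its exons overlap *Nfix* on the opposite strand.

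**Figure D2:**
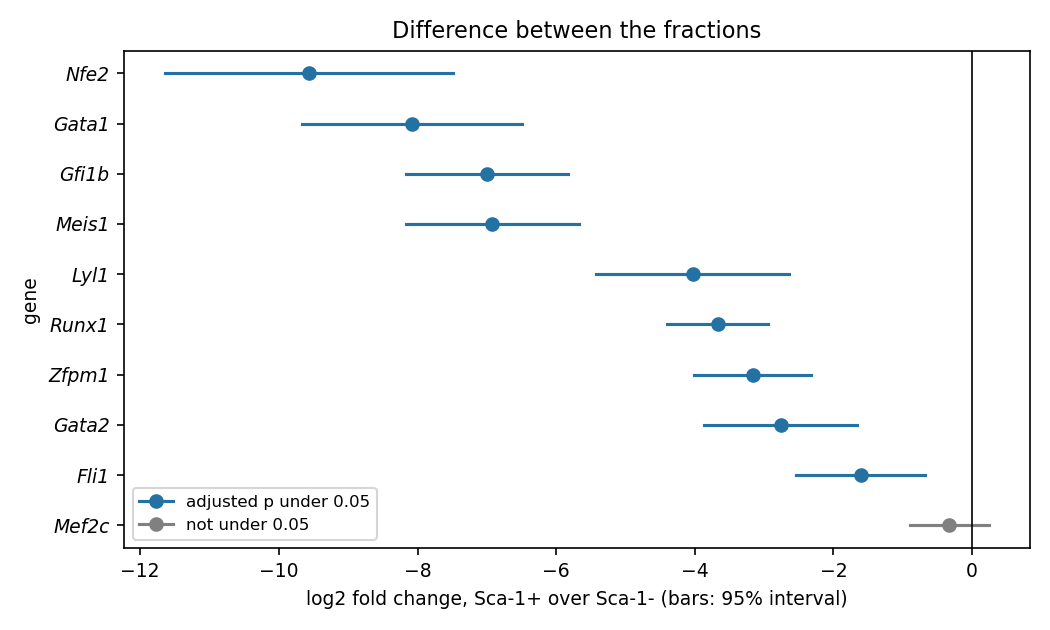
Log2 fold change of each gene, Sca-1+ over Sca-1- (x axis), with its 95% interval from edgeR, ordered from the largest difference at the top; blue genes passed at an adjusted p under 0.05 and *Mef2c*, in grey, did not. The intervals run from -11.6 at the lower end for *Nfe2* to 0.24 at the upper end for *Mef2c*.

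The libraries of the Sca-1- fraction did not share 1 level of these factors. Library 10 was the highest of the 5 for 8 of the 10 genes and library 16 the lowest for 7, and without TMM factors these counts were 6 and 5. Library 22 was the highest for *Mef2c* and *Zfpm1*. The 14 known megakaryocyte targets of the factors ran in the same direction, at 6.55% of counts in library 10 and 3.14% in library 16. In Sca-1+ libraries these targets took 0.0131% to 0.0206% of counts, and the part of residual megakaryocyte RNA in the levels of the 10 genes there was not tested. No single Sca-1+ library led, and the 10 genes together took 0.0482% to 0.0581% of counts against 0.337% to 0.796% in Sca-1-.

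The promoters of 8 of the 10 genes were found among the RefSeq windows of 300 bases on GRCm38.p6, from 250 bases before to 50 after a start, with 12 windows in all. *Nfe2* and *Fli1* had none. Letters bound by the factors' own families were searched on both strands. GATAA, the core that GATA factors bind, was in 2 of the 12 windows and in 25.4% of all 32851 windows. TGTGGT of the RUNX factors was in 2 of the 12 and in 16.8% of all, and GGAAGT of the ETS factors was in 3 of the 12 and in 23.8% of all. Such a match is a description of the letters and not a binding site. The 4 windows printed are that of *Gata1*, without a match, those of *Gfi1b* and *Runx1* as genes apart between the fractions with a GATA or RUNX match, and that of *Mef2c*, the gene that did not pass, with 2 GATA matches. All read 5′ to 3′ on the strand of the gene, with matched letters in capitals, which for *Runx1* show TGTGGT as it reads on the other strand.
Gata1, chrX:7967861-7968160, minus strand: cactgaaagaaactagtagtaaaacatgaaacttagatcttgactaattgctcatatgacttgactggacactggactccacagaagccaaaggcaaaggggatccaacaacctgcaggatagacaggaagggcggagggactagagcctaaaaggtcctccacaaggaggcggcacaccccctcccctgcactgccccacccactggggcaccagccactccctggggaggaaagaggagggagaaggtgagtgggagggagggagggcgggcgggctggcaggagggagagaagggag
Gfi1b, chr2:28621933-28622232, minus strand: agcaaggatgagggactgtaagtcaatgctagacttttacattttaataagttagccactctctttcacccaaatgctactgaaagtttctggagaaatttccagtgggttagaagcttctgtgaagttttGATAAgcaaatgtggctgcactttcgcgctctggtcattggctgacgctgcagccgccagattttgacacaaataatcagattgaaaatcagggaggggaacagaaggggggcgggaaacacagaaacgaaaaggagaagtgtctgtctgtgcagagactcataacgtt
Runx1, chr16:92826025-92826324, minus strand: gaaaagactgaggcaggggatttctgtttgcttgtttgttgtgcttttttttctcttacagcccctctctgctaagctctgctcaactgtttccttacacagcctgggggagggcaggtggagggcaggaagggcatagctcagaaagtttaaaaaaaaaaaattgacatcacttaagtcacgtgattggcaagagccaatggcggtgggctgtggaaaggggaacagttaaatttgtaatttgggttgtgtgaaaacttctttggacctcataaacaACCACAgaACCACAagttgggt
Mef2c, chr13:83523406-83523705, plus strand: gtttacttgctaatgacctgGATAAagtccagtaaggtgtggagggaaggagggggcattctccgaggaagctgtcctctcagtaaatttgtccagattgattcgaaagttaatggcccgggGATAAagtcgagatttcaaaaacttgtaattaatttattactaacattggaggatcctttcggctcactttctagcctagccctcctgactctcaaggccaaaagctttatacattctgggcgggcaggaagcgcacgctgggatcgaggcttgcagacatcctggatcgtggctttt

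The single GATA match of the *Gfi1b* window and both of the *Mef2c* window lay upstream of the start, while the 2 RUNX matches of the *Runx1* window lay at its 3′ end. Of the 2 genes with a GATA match, *Gfi1b* was 128-fold lower in Sca-1+ and *Mef2c* did not pass.

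Within families, the leading gene differed between the fractions for the GATA, NFE2 and MEIS genes and for *Tal1* and *Lyl1*. Levels per length (RPKM) were compared, as the share of each family's summed level in each library. *Gata1* made up 75.6 ± 6.81% (SD, n = 5) of the GATA family in Sca-1- libraries and 7.37 ± 3.66% (SD, n = 4) in Sca-1+ libraries, where *Gata2* made up 87.5 ± 3.04% (SD, n = 4). *Gata3*, known in T cells, added 4.01 ± 1.12% in Sca-1+, and *Gata4* and *Gata5* had 0 counts in all 9 libraries, which allows up to 0.0996 to 0.209 CPM per library for counting error alone. *Gata2* thus led in Sca-1+ although its own level was lower there. The exons of *Gata3* overlap 9230102O04Rik on the same strand and Gm13256 on the opposite strand, so its share is uncertain.

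*Nfe2* made up 86.7 ± 3.90% (SD, n = 5) of its family in Sca-1- and 1.25 ± 0.734% (SD, n = 4) in Sca-1+, where *Nfe2l2*, the NRF2 gene of the oxidative stress response, made up 79.4 ± 3.75% (SD, n = 4). The level of *Nfe2l2* itself did not pass the test, and differed by -0.47 on the log2 scale, with a standard error of 0.36. *Meis1* was 85.0 ± 13.9% (SD, n = 5) of the MEIS family in Sca-1- and 2.65 ± 1.78% (SD, n = 4) in Sca-1+, where *Meis3* was 70.4 ± 6.80% and *Meis2* 27.0 ± 8.22% (SD, n = 4). In the FOG, ERG, RUNX and GFI1 families the same gene led in both fractions by mean share. *Zfpm1* was 98.7 ± 1.42% (SD, n = 5) of the pair with *Zfpm2* in Sca-1- and 55.1 ± 5.19% (SD, n = 4) in Sca-1+. *Fli1* was 98.99 ± 1.02% (SD, n = 5) of the trio with *Erg* and *Fev* in Sca-1- and 84.7 ± 2.09% (SD, n = 4) in Sca-1+, where *Erg*, an ETS factor of endothelium, was 13.9 ± 2.04%. *Runx1* held 74.5 ± 10.98% (SD, n = 5) and 74.0 ± 8.78% (SD, n = 4) of the RUNX family, and *Gfi1b* over 98% of its pair with *Gfi1* in every library. *Gfi1* overlaps A430072P03Rik on the opposite strand and is uncertain. *Mef2c* held 42.3 ± 5.44% (SD, n = 4) of the MEF2 family in Sca-1+. In Sca-1- it held 37.5 ± 15.2% (SD, n = 5) beside 37.3 ± 8.68% for *Mef2d*, which was ahead of it in libraries 8, 10 and 14. *Mef2d* overlaps 1700113A16Rik on the opposite strand and is uncertain. In the SCL family *Tal1* held 61.8 ± 5.88% and *Lyl1* 37.1 ± 6.32% (SD, n = 4) in Sca-1+. In Sca-1- *Lyl1* held 51.9 ± 8.30% and *Tal1* 48.1 ± 8.28% (SD, n = 5), with *Tal1* ahead in library 22 at 62.9%.

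**Figure D3:**
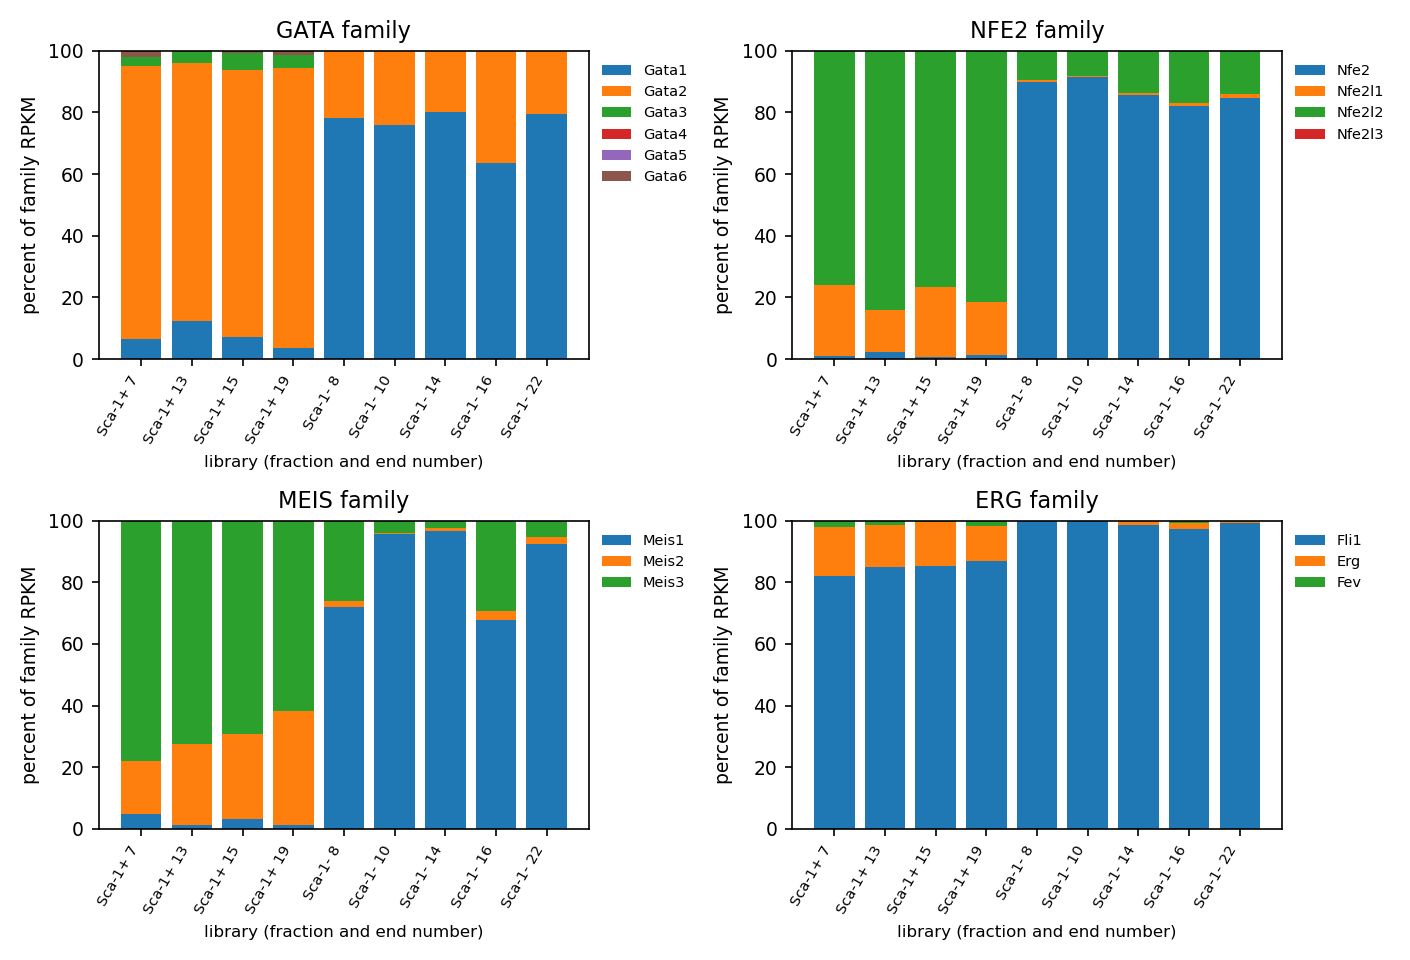
Share of each family's summed RPKM (y axis, percent) by gene in each library (x axis), for the GATA, NFE2, MEIS and ERG families. *Gata1* and *Nfe2* fill most of the bar in the 5 Sca-1- libraries and little of it in the 4 Sca-1+ libraries, while *Fli1* leads in all 9.

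The ratio of *Gata1* to *Gata2* per length, taken within each library and so free of scaling between libraries, was 0.0713, 0.148, 0.0814 and 0.0407 in Sca-1+ libraries 7, 13, 15 and 19. It was 3.61, 3.15, 4.08, 1.76 and 3.92 in Sca-1- libraries 8, 10, 14, 16 and 22. The fractions did not overlap, and library 16 was the lowest of the Sca-1- fraction. That library is the one with 1.53% of its counts in mast cell, basophil and eosinophil markers, cells in which both GATA genes are known, and the part of those cells in its ratio was not tested. Library 14, next by these markers at 0.192%, had the highest ratio. The differences of *Gata1* and *Gata2* between the fractions were still called without library 16, at log2 fold changes of -8.29 and -2.86.

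**Figure D4:**
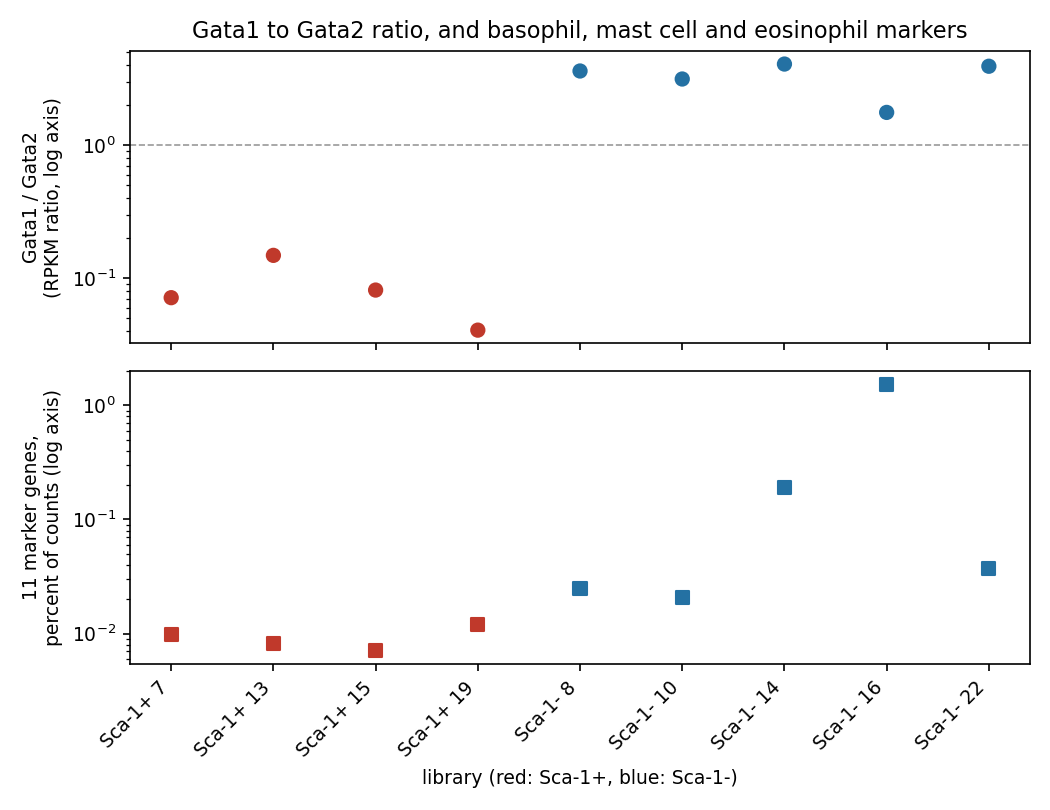
Upper panel, the ratio of *Gata1* to *Gata2* by RPKM in each library on a log axis, with a dashed line at equal levels; lower panel, the share of counts in 11 mast cell, basophil and eosinophil markers on a log axis. Red points are Sca-1+ and blue points Sca-1- libraries; library 16 of Sca-1- has the lowest ratio of its fraction (1.76) and the highest marker share (1.53%).

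Genes whose pattern over the 9 libraries was most like that of *Gata1*, by root mean square difference in log2 CPM after each gene's own mean was removed, were *Tnik* (0.27), *Gm38158* (0.35), *Gm13206* (0.40) and *Cxcl3* (0.45). *Gm13206* had no counts in Sca-1+ libraries and 19.7 CPM on average in Sca-1-. For *Gata2* they were *Hdac5* (0.26), *Samd1* (0.28), *Chd9* (0.28) and *Phip* (0.30), all lower in Sca-1+ too, with log2 fold changes from -2.48 for *Phip* to -2.87 for *Samd1*. These are descriptions of 9 libraries that differ mainly by fraction.

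Of 27 genes of the complexes in which the factors work, 6 were higher in Sca-1+, 7 were lower and 14 did not pass, with a median log2 fold change of 0.05. These counts were near the shares of all tested genes (23.3% higher, 21.4% lower), and under scaling to general endothelial markers 24 of the 27 were lower. Among those lower were *Tal1*, the SCL factor that joins GATA1 and LMO2, at -3.07 on the log2 scale (standard error 0.47, adjusted p = 0.000577), *Mafg*, the small MAF partner of NF-E2, at -3.01 (standard error 0.57, adjusted p = 0.00178), and *Mkl1*, the cofactor of SRF, at -3.63 (standard error 0.45, adjusted p = 0.000180). *Mafg* and *Mkl1* share exon letters with a neighbouring gene, *Sirt7* on the same strand and *Sgsm3* on the opposite strand, and are uncertain. Among those higher were *Tcf4*, an E protein, at 3.17, *Maff*, another small MAF gene, at 2.59 and *Ets1*, an ETS factor of endothelium and lymphocytes, at 2.33. *Lmo2* and *Ldb1*, the bridging proteins of the GATA and SCL complex, did not pass, with log2 fold changes of 0.41 and 0.47. *Ldb1* overlaps *Pprc1* on the opposite strand and is uncertain.

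Of 21 relatives of the 10 genes, 15 passed the filter on low counts, 4 of them higher, 3 lower and 8 not called, again near the 23.3% and 21.4% of all tested genes. The relatives that were higher included *Erg* at 3.21 (standard error 0.51, adjusted p = 0.000663), *Zfpm2* at 2.94 (standard error 0.87, adjusted p = 0.0186) and *Meis2* at 2.68 (standard error 0.58, adjusted p = 0.00374), on the log2 scale. The relatives that were lower included *Runx3* at -5.08 and *Bach2*, a repressor of the NF-E2 kind, at -2.89. *Bach2* overlaps the antisense gene *Bach2os* and is uncertain. Of 11 lineage factors of other blood cells, 10 were tested, 5 lower and 2 higher. *Myb*, of progenitors, was lower at -5.87, *Ikzf1*, of lymphocytes, at -5.26 and *Spi1*, of myeloid and B cells, at -4.24, with *Myb* overlapped by Gm26577 on the opposite strand. *Mecom*, a stem cell and endothelial factor overlapped by *Mecomos*, was higher at 4.86 and *Ebf1* at 2.61.

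**Figure D5:**
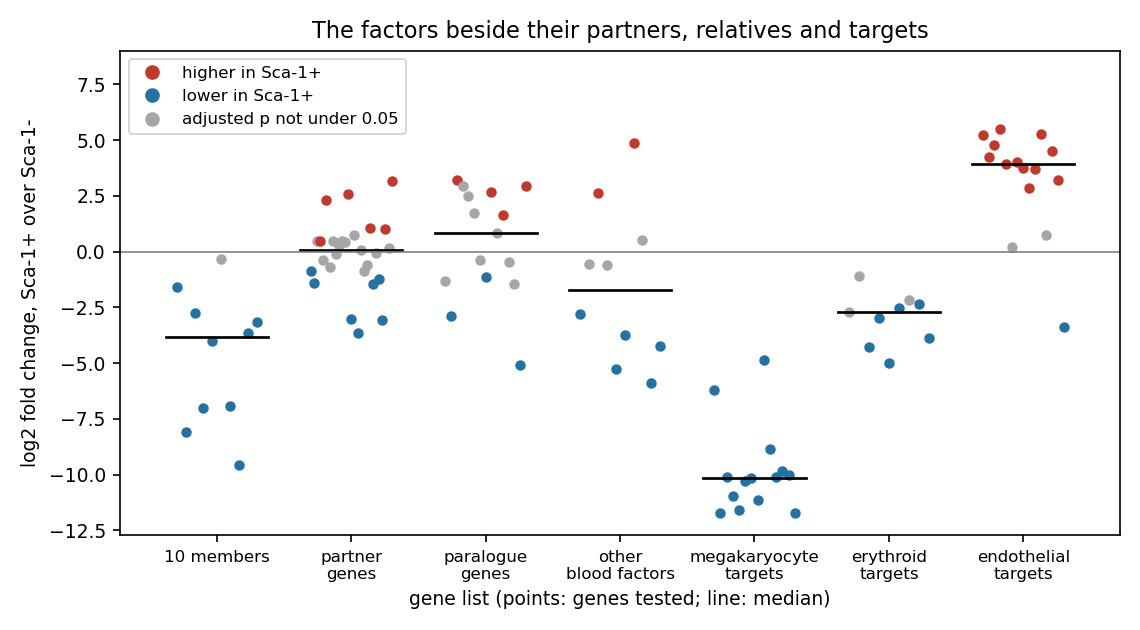
Log2 fold change, Sca-1+ over Sca-1- (y axis), for the 10 genes and for each list of partners, relatives, other blood factors and known targets, with 1 point per tested gene and a black line at each list's median; red and blue points passed the test as higher and lower in Sca-1+ and grey points did not. The medians are -3.85 for the 10 genes, -10.1 for the megakaryocyte targets and 3.91 for the endothelial targets.

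The genes long known as targets of these factors differed by lineage. All 14 megakaryocyte targets were lower in Sca-1+, with a median log2 fold change of -10.1 that was larger than that of any of the 10 factors. Among all tested genes 21.4% were lower and 23.3% were higher. *Gp1ba*, a subunit of the von Willebrand factor receptor, was at 0.679 ± 0.452 CPM (SD, n = 4) in Sca-1+ and 2332 ± 1855 CPM (SD, n = 5) in Sca-1-. *Tubb1*, the platelet tubulin, was at 2.74 ± 2.38 CPM (SD, n = 4) in Sca-1+ against 9284 ± 7394 CPM (SD, n = 5), and *Gp6*, the collagen receptor, at 0.145 ± 0.170 CPM (SD, n = 4) in Sca-1+ against 463 ± 331 CPM (SD, n = 5). Of 10 erythroid targets, 9 were tested and 6 were lower, among them *Hba-a1* at -5.01 and *Ermap* at -4.29, and none was higher, with a median of -2.69. Reads of *Hba-a1* and its near-identical copy *Hba-a2* may be split, so both are uncertain.

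Of 15 endothelial targets 12 were higher in Sca-1+, 1 was lower and 2 did not pass, with a median of 3.91. The shares over all tested genes were 23.3% higher and 21.4% lower. *Emcn* (5.48), *Nos3* (5.28, with exons that overlap *Atg9b* and are uncertain) and *Cdh5* (5.20) had the largest log2 fold changes of the list. *Vwf*, which megakaryocytes and endothelium both make, was lower in Sca-1+ at -3.36 (standard error 0.55, adjusted p = 0.000844). *Pecam1*, the CD31 gene by which both fractions were sorted, did not pass, with 1399 ± 261 CPM (SD, n = 4) against 836 ± 613 CPM (SD, n = 5).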

How the data were processed

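RNA-seq was analysed in 9 libraries of sorted BM ECs, 4 Sca-1+ and 5 Sca-1-, grouped by the deposited labels. Poly(A) libraries were made with the SMART-Seq v4 kit, and the submitters' processing notes name STAR, featureCounts and mm10. Versions, annotation and strand setting are not given in the sources used here. The authors deposited whole-number read counts per gene, not normalized, and without molecular identifiers, so floors cover counting error only. The intervals from edgeR also cover the spread between libraries. The members and lists were chosen with earlier results of these data known.

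Testing was done with edgeR 4.0.16 in R 4.3.3: filterByExpr at default settings (minimum count 10, minimum total 15), TMM, and the quasi-likelihood F-test, two-sided, on all 9 libraries, with Benjamini-Hochberg adjustment over 15937 genes and a threshold of 0.05. Library size was 21581653 to 25959818 counts, the TMM factors 0.581 to 1.22 and the common dispersion 0.301 (a biological coefficient of variation of 0.549). For log2 CPM the prior count was 2. A count of 3 per library was the floor. RPKM used the merged exon length of GENCODE M21 (GRCm38), which holds 45229 of the 46078 genes and also gave exon overlaps and positions. Promoter windows were from RefSeq. DESeq2 1.42.0 and limma 3.58.1 were alternatives. Besides the 10 genes, the text names up to 3 genes per list and direction with the largest log2 fold change among those past the threshold, with a mean log2 CPM not under 1 and fractions that do not overlap, all relatives in the family shares, and the 4 genes most alike to *Gata1* and *Gata2*. *Cbfb*, *Lmo2* and *Ldb1* were named after their values were seen. One gene that the rule names is not reported here. On simulated counts of 15494 genes for this comparison, 32 of 88 genes changed by a log2 fold of 2 and 73 of 106 by 3 were recovered, with 2 unchanged genes called.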

Additional observations from a re-analysis of the deposited data

Results flagged for a closer look

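The log2 CPM of *Runx1* was 6.65 in Sca-1- library 10, while the 4 others of the fraction were at 5.95 to 6.04, so this library lay far from them. It was the 1 such case among 20 groups of libraries, 10 genes in 2 fractions, and chance gives about 1 in 20. Library 10 also had the lowest TMM factor (0.581), and by library size alone *Runx1* was highest in library 16. The part of scaling in the value was not tested further.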

How the results depend on the processing

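The direction of the log2 fold change held for 9 of the 10 genes under 11 other fits and 9 fits that left out 1 library. The exception, *Mef2c*, was 0.037 under library size without TMM factors. It was -3.62 (adjusted p = 9.93e-06) under scaling to general endothelial markers, where all 10 passed. With a replicate block of the 6 libraries with consecutive end numbers 8 passed, because *Fli1* did not (-1.21, adjusted p = 0.0976), and the same 6 libraries without the block gave 9. Leaving out each library in turn gave 9. Endothelial scaling, which assumes equal endothelial RNA, called 24 of 27 partner genes, all lower, and 13222 of all genes, 2.34% of them higher against 52.1%. The replicate block called 4 relatives and 4340 of all genes, and the same 6 libraries without it 6 and 5360. Among relatives called, 77.8% were higher by limma and 71.4% by library size, against 57.1%, and library size called 63.1% of all genes called as higher. Under endothelial scaling none of 9 relatives called was higher, and 10.3% of targets called against 36.4%. The median log2 fold change of all genes moved by 0.36 under library size, -3.29 under endothelial scaling, 0.12 under the block and -0.11 without Sca-1- library 8. Deviations of consecutive end numbers correlated by 0.147 (7 and 8), 0.148 (13 and 14) and 0.0420 (15 and 16). The titles of 15 and 16 also share another number, which the labels do not explain, and those of the other pairs were not said to share a mouse, so the block is given here only as an alternative. Depth limits *Meis1* in Sca-1+ (9 to 36 counts).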
